A study of Mus musculus with 30 samples.

Results

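Alpha-cells taken from mice whose beta-cells had been ablated with diphtheria toxin were compared with alpha-cells of untreated mice. The comparison used 12 of the 30 bulk RNA-seq libraries of fluorescence-sorted mouse islet cells, chosen by their transgenic label alone: 4 libraries labelled ctl DT (called alpha DT) and 8 labelled ctl noDT (called alpha). The alpha DT libraries came from Glucagon-Venus; RIP-DTR mice that received the toxin at 2 months of age and were sampled 30 days later. The alpha libraries came from 3-month-old Glucagon-Venus mice, which carried the same reporter but neither RIP-DTR nor toxin, so that transgene, toxin and loss of beta-cells cannot be told apart here. RIP-DTR places the diphtheria toxin receptor under an insulin promoter, which makes insulin-expressing cells sensitive to the toxin. Venus marks the cells that express the Glucagon reporter, and the sorted cells were alpha-cells as far as that reporter and the sort define them. A further 11 libraries gave the same toxin contrast in alpha-cells labelled as expressing Pdx1: 6 labelled aPdx1OE DT, from toxin-treated mice with RIP-DTR, CAGPdx1, R26YFP, TetO-Cre and Glucagon-rtTA (alpha Pdx1 DT), and 5 labelled aPdx1OE noDT, from mice of 3 months with CAG-Pdx1, R26YFP, TetO-Cre and Glucagon-rtTA but without RIP-DTR or toxin (alpha Pdx1). The other 7 libraries are beta-cells and entered the fits only through the estimate of the spread.

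Alpha-cells secrete glucagon when blood glucose is low, and neighbouring beta-cells restrain them through insulin and other secreted products. After near-total loss of beta-cells alpha-cells persist, and in mice a small share of them is known to start making insulin. Islets also hold resident macrophages, which take up dying cells, and parasympathetic nerve fibres and neurons, whose transmitters include acetylcholine and vasoactive intestinal peptide. Acinar cells, which make digestive enzymes, surround the islets, and their very abundant transcripts are common in sorted islet preparations.

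The deposited values are quantile-normalized log2 values, so each library has nearly the same distribution and the most abundant genes take fixed values that show rank and not amount. A log2 fold change is the mean of alpha DT minus the mean of alpha, errors after ± are standard errors of that difference, and adjusted p-values come from limma fitted to the 16633 genes that reached 5 in at least 4 libraries, with calls at an adjusted p under 0.05. Read numbers are not in the table. No label names the animal behind a library, and the p-values therefore measure only the spread between these samples, which may be technical. Of the 8 alpha libraries, alpha 8 stood apart, with Pdx1 at 11.23 and Gcg at 20.54, against at most 5.61 for Pdx1 and exactly 22.57 for Gcg in the other 7. Over the tested genes, which are not independent replicates, alpha 4 had a Pearson r of 0.993 with alpha Pdx1 DT 5, a library of the toxin-treated Pdx1 group, and of 0.968 with alpha 3, the nearest library of its own group. No other alpha DT or alpha library had an r above 0.968 with any library. The library labelled alpha Pdx1 DT 5 had Pdx1 at 5.51, against 11.53 to 12.59 in the other 5 libraries of its group, so its Pdx1 level goes against its label, as does that of the library labelled alpha 8. All are used under their labels. Results for single genes that turn on one of them are given with and without it.

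The toxin contrast called 543 of 16633 genes (3.26% of those tested) at an adjusted p under 0.05, 261 higher (1.57%) and 282 lower (1.7%) in alpha DT. The 4 alpha DT libraries lay entirely above the 8 alpha libraries for 158 genes (0.95%) and entirely below them for 186 (1.12%). The count depended on single libraries. It was 1078 without alpha DT 4, 341 without alpha DT 2, 306 without alpha 2 and 347 without alpha 4, and 543 without alpha 8 and 4 libraries of other groups that stood apart (beta 1, beta 5, alpha Pdx1 DT 5 and alpha Pdx1 5), of which 417 were shared with the fit to all libraries. The ribosomal RNA gene Rn18s-rs5 ran between 19.27 and 20.54 in alpha DT and between 17.68 and 20.54 in alpha, and with its level as a covariate 295 genes were called, 271 of them shared. Leaving out alpha 4 with alpha Pdx1 DT 5 gave 468 genes, 438 of them shared. When limma tested for changes beyond 1 on the log2 scale, 0 genes passed and 246 reached an unadjusted p under 0.05.

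The largest rises included genes of nerve cells and neuropeptide genes. Vip, which encodes vasoactive intestinal peptide, had log2 values of 8.81, 11.63, 9.77 and 5.22 in alpha DT 1 to 4, against a lowest value of 1.23, a median of 2.77 and a highest of 7.39 in alpha. It was high in 3 alpha DT libraries and intermediate in alpha DT 4, and the groups overlapped because alpha 4 held the 7.39. Its log2 fold change was 5.66 ± 0.95 (adjusted p = 0.00158), and 6.26 without alpha 4. Npy, the gene of neuropeptide Y, had 8.42, 10.36, 8.95 and 4.22 in alpha DT and ran between 1.36 and 6.002, with a median of 3.09, in alpha. It showed the same order of libraries, with alpha DT 4 the lowest of the toxin group and alpha 4 the highest untreated library, and its fold change was 4.51 ± 0.88 (adjusted p = 0.00522). Npy is in the list of beta-cell identity genes and not in the neural list, and it was also high in the sorted beta-cells (mean 9.01, SD 0.70, n = 7). Prph, which encodes peripherin, an intermediate filament of peripheral neurons, had 7.32, 8.26, 8.94 and 3.39 in alpha DT, against a median of 0.83 in alpha, where alpha 4 had 5.93 and the other 7 at most 1.03. It rose by 5.49 ± 0.97 (adjusted p = 0.00229). Slc18a3, which loads acetylcholine into synaptic vesicles and whose gene lies within that of choline acetyltransferase, had 6.37, 6.55, 7.76 and 2.67 in alpha DT and at most 1.40 in alpha outside alpha 4, which had 3.42. Its fold change was 4.63 ± 0.83 (adjusted p = 0.00247). Without alpha 4 the fold change was 4.88 for Npy, 6.12 for Prph and 4.95 for Slc18a3, and all 3 still passed. The lowest value of an alpha library lay between 0.76 and 1.03. Outside alpha 4, Prph and Slc18a3 were at or near that floor in alpha, so the sizes of their fold changes depend on it. Vip, Prph and Slc18a3 also entered the test through libraries where they are high, so their tests describe them and are no support.

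Promoter sequences of these genes, the 250 bases before the RefSeq start in GRCm38.p6, are shown because the 4 genes moved together across libraries. The search was for TGACG, the half-site of the cyclic AMP response element, on both strands (CGTCA on the other), and for the full element TGACGTCA. The half-site is in capitals. It was found once in Vip, 79 bases before the start, and once in Slc18a3, on the other strand 49 bases before the start, and neither Npy nor Prph held it in this window. None of the 4 held the full element. Of 32851 promoter windows of the same length, 17.8% held the half-site and 1.55% the full element.
Vip promoter (chr10:5638968-5639217, plus strand): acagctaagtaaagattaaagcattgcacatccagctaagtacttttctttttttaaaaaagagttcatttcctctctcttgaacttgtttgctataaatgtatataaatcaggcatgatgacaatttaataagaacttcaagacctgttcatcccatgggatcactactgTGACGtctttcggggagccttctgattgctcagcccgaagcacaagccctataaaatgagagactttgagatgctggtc
Npy promoter (chr6:49822460-49822709, plus strand): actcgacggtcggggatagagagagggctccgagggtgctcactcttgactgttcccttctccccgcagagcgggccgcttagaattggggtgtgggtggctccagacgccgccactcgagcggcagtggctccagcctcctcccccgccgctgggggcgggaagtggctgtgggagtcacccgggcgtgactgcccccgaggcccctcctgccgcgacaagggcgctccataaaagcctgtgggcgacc
Prph promoter (chr15:99054924-99055173, plus strand): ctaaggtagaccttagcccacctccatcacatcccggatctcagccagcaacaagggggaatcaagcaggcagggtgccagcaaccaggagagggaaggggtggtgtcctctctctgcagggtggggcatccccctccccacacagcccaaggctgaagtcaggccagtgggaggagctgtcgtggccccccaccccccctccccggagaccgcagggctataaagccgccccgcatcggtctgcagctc
Slc18a3 promoter (chr14:32464851-32465100, minus strand): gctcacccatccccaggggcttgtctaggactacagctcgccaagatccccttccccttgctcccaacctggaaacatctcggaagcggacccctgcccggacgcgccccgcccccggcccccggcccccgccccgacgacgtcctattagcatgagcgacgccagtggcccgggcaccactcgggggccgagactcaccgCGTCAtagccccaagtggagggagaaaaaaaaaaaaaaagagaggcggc

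Of the list of neural and Schwann-cell genes, 16 of 24 members were in the table, 12 were tested and 4 rose (Vip, Prph, Slc18a3 and Stmn2), where 1.57% of all genes rose. Slc18a3 reached the filter value of 5 only in toxin-treated libraries, and the other 3 reached it only in toxin-treated libraries, alpha 4 and beta 5. These genes entered the test through libraries where they are high, so the count and their single tests are descriptions and no support. With a filter of 7, 2 rose. Stmn2, a microtubule regulator of neurons, had 6.91, 8.16, 8.82 and 3.39 in alpha DT and 7.28 in alpha 4, against at most 2.36 in the other alpha libraries. Its fold change was 4.85 ± 1.14 (adjusted p = 0.0172). The choline transporter gene Slc5a7, chosen after its values were seen, averaged 6.03 (SD 2.30, n = 4) in alpha DT and 1.46 (SD 1.82, n = 8) in alpha, a fold change of 4.57 ± 0.97 (adjusted p = 0.00896). The mean of the 12 genes was 7.80, 8.29 and 8.45 in alpha DT 1 to 3 and 5.86 in alpha DT 4, against 7.05 in alpha 4 and 4.79 to 5.56 in the other alpha libraries. In bulk samples, more cells of a type and more RNA per cell cannot be told apart.

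**Figure D1:**
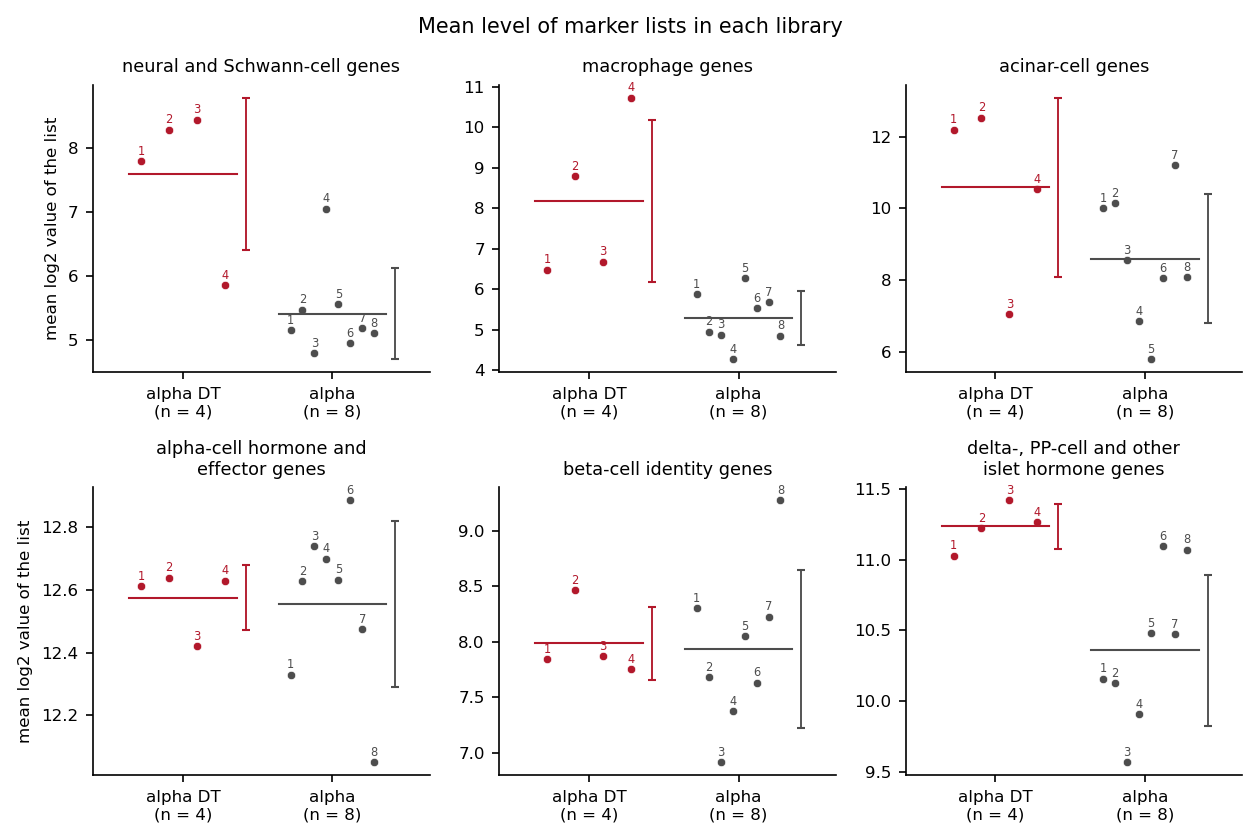
Mean log2 value (y axis) of 6 marker lists in each alpha DT and alpha library (points, numbered by library), with the group mean (line) and SD (bar). The neural mean is lowest in alpha DT 4 within the toxin group and the macrophage mean is highest there (10.73), while the alpha-cell means of both groups lie between 12.05 and 12.89.

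Among 18 tested neuropeptide and chromogranin-family genes, 3 rose (Vip, Npy and Vgf) and Scg3 fell, in all 22.2% against 3.26% of all genes tested. The median fold change was 0.65. Vip entered the test through libraries where it is high, so this share describes the list and is no support. Vgf, the precursor of several granule peptides of neurons and endocrine cells, had 10.17, 10.01, 9.49 and 8.99 in alpha DT, against 6.26 to 7.84 with a median of 7.39 in alpha. Its groups did not overlap, its rise of 2.36 ± 0.45 (adjusted p = 0.00371) was kept in the 12 fits that each left out 1 alpha DT or alpha library, and alpha 4, at 7.32, was not high. Vgf was lowest in alpha DT 4 within the toxin group, as the nerve genes above were, and differed from them in alpha 4. With the mean of the neural list as a covariate in limma, its fold change was 2.10 ± 0.64 (adjusted p = 0.129). Without alpha DT 4, 6 members of this list rose. Scg3, a granule sorting protein, had 14.67, 14.97, 14.99 and 14.74 in alpha DT and 15.05 to 16.19 in alpha, a fall of 0.87 ± 0.24 (adjusted p = 0.0401). That call held in 4 of the 12 such fits and was lost without alpha DT 1, 2 or 4 or without alpha 2, 3, 4, 6 or 8, with adjusted p-values up to 0.0851.

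Genes of macrophages were also higher in alpha DT. Of 41 listed genes, 27 were in the table and were tested, and 10 rose, where 1.57% of all genes rose (Csf2ra, Timd4, Fcer1g, Tyrobp, Itgam, Cx3cr1, Csf1r, Marco, Dnase1l3 and Lyz2), with none lower and a median log2 fold change of 2.57, against -0.06 over all genes tested. Low genes of this list, too, could pass the filter through the libraries where they are high. The count was 6 without alpha DT 2, and 5 with library weights. Csf1r, the receptor for the growth factor that macrophages depend on, had 6.88, 10.30, 9.42 and 11.80 in alpha DT, against 4.45 to 6.21 with a median of 4.97 in alpha. The groups did not overlap, and the fold change was 4.38 ± 1.04 (adjusted p = 0.0198; 0.0568 without alpha DT 2). Timd4, a receptor for phosphatidylserine on dying cells carried by resident macrophages, had 7.96, 10.71, 6.46 and 11.80 in alpha DT and 1.48 to 5.34 in alpha, a rise of 5.71 ± 1.06 (adjusted p = 0.00368). Siglec1, the sialic acid receptor of tissue macrophages, rose by 4.26 ± 0.83 (adjusted p = 0.00582), with 8.65, 11.29, 8.85 and 10.14 in alpha DT and at most 7.17 in alpha. Fcer1g, a signalling chain of Fc receptors, had 7.59, 8.65, 9.55 and 10.27 in alpha DT and 3.60 to 6.82 in alpha, a rise of 3.98 ± 0.79 (adjusted p = 0.00582). Lyz2, the lysozyme gene of myeloid cells, had 12.25, 13.88, 11.30 and 15.62 in alpha DT and 6.84 to 10.27 in alpha. Its rise of 4.85 ± 1.35 passed narrowly (adjusted p = 0.0471) and was lost without alpha DT 1, 2 or 4 or without alpha 2, 3, 4, 6 or 8, with adjusted p-values up to 0.108.

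The mean of the 27 macrophage genes was 6.48, 8.79, 6.68 and 10.73 in alpha DT 1 to 4 and 4.27 to 6.27 in alpha. All 4 alpha DT libraries lay above the alpha libraries, alpha DT 4 the furthest, and alpha 4 had the lowest mean of all 12. Single defining genes differed. The complement genes C1qb and C1qc were at their library's lowest value in 2 alpha DT libraries each, yet C1qb reached 10.91 in alpha DT 4. C1qa had 7.25, 7.72, 4.94 and 9.68 in alpha DT and 4.86 to 8.01 in alpha, and did not pass the test (0.94 ± 0.63, adjusted p = 0.426). Csf2ra, the receptor chain for granulocyte-macrophage colony-stimulating factor, was above the median of all values (8.55) in every alpha library, with 10.03, 10.85, 11.50 and 10.55 in alpha DT, against 8.66 to 9.63 in alpha. Its rise of 1.58 ± 0.26 (adjusted p = 0.00122) was kept in all 12 fits that left out a library. None of 17 tested genes of other leukocytes passed, although all 17 had positive fold changes with a median of 2.08. Coro1a, an actin regulator of leukocytes, had 6.29, 7.85, 8.65 and 6.99 in alpha DT and ran between 2.25 and 7.95 in alpha (2.92 ± 1.07, adjusted p = 0.12).

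**Figure D2:**
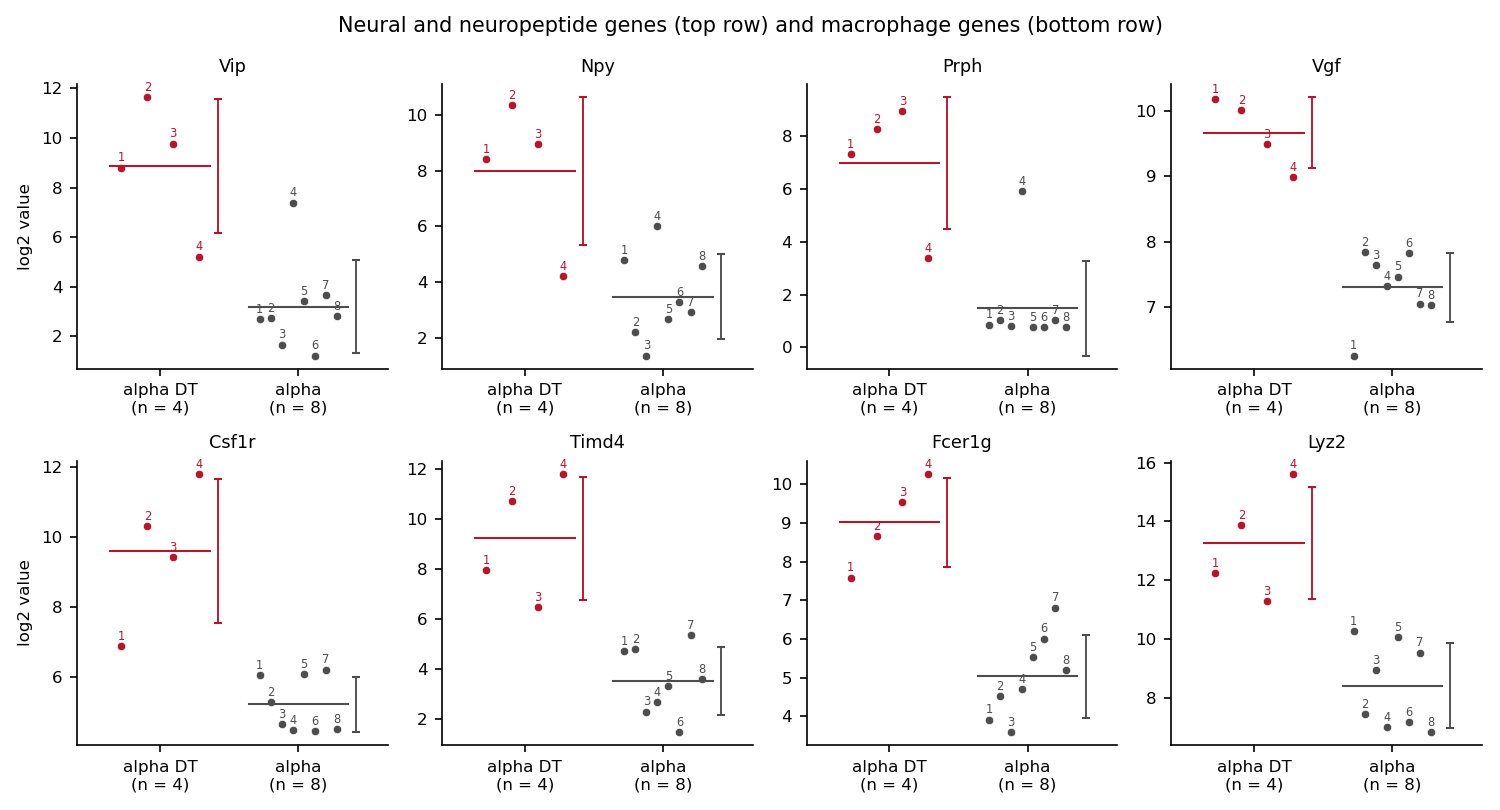
Log2 values (y axis) of 4 neural or neuropeptide genes and 4 macrophage genes in each numbered library of alpha DT and alpha, with group mean (line) and SD (bar). Vip, Npy and Prph are lowest in alpha DT 4 within their group and highest in alpha 4 within alpha, whereas Csf1r, Timd4, Fcer1g and Lyz2 are highest in alpha DT 4.

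Acinar genes varied widely within both groups. Of 34 tested acinar genes, 1 passed (2.94%, against 3.26% of all genes tested), and 33 had positive fold changes with a median of 1.96. That gene, Prss3, a trypsinogen, had 10.69, 10.54, 3.32 and 5.88 in alpha DT and 1.51 to 7.02 in alpha (4.74 ± 1.27, adjusted p = 0.037), and it passed in 4 of the 12 fits that left out a library, with an adjusted p of 0.139 without alpha DT 2. The call was also lost without alpha DT 1 or without alpha 1, 2, 3, 4, 6 or 8. Ctrb1, chymotrypsinogen, had 17.31, 16.66, 11.40 and 15.16 in alpha DT, against 9.21 to 16.17 in alpha (3.20 ± 2.09, adjusted p = 0.411). Amy2a5, pancreatic amylase, had 15.62, 16.98, 10.39 and 15.27 in alpha DT, against 9.81 to 17.09 in alpha (0.20 ± 2.02, adjusted p = 0.969). The acinar mean was 12.20, 12.53, 7.07 and 10.55 in alpha DT 1 to 4 and 5.81 to 11.20 in alpha, so that alpha DT 3 was among the lowest of the 12 libraries and alpha DT 1 and 2 were above every alpha library. Of 12 tested stromal genes, 1 passed (8.33%, against 3.26% of all genes tested), 4 had positive and 8 negative fold changes, and the median was -0.23. That gene, Vim, rose by 2.73 ± 0.69 (adjusted p = 0.0261, and 0.0514 without alpha DT 3 or 0.0561 without alpha DT 4). Vim was highest in alpha DT 4 (10.76) and had 1.11 (adjusted p = 0.381) with the mean of the macrophage genes as a covariate. None of 5 tested endothelial genes and neither of the 2 red-cell genes passed.

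To see how the calls moved with the level of genes of admixed cells, the contrast was refitted with the mean of a list in each library as a covariate. With the macrophage mean, 244 genes were called and 139 of them were among the 543, 59 higher and 80 lower. With the acinar mean, 473 were called and 411 were shared. With the neural mean, a covariate added after the values were seen, 15 were called and 13 were shared, while the median log2 fold change was 1.30 for the 261 risers and -0.98 for the 282 fallers, against 1.47 and -1.06 without a covariate. The macrophage mean did not overlap between the groups (6.48 to 10.73 in alpha DT, 4.27 to 6.27 in alpha). The neural mean is itself high in 3 of 4 alpha DT libraries. Either covariate thus goes partly with the group, and a call can be lost through a smaller fold change or a larger standard error. With the neural mean, 5330417C22Rik had -0.96 ± 0.20 against -0.95 ± 0.14 without it, whereas Npy had 1.10 ± 0.87 against 4.51 ± 0.88. These fits cannot set genes of admixed cells apart from alpha-cell genes. With all 3 means together no gene was called.

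A gene that is in a covariate list is fitted on a mean that contains it, so its smaller fold change there says nothing about its source. Npy, which is in none of the 3 covariate lists, kept a fold change of 5.93 with the macrophage mean (adjusted p = 0.00253) and had 1.10 with the neural mean (adjusted p = 0.597). Vip, a member of the neural list, had 6.73 and 0.94 in the same fits. Siglec1, which is not in the macrophage list, had 1.96 with the macrophage mean (adjusted p = 0.104) and 4.28 with the neural mean (adjusted p = 0.111). Csf1r, a member, had 0.96 with the macrophage mean and 5.78 with the neural mean. Kcnn2 stayed past the threshold in each, with -1.83 (adjusted p = 0.0343) for the macrophage, -2.63 (adjusted p = 0.00213) for the acinar and -3.15 (adjusted p = 0.0206) for the neural mean. Mrpl41 and 5330417C22Rik also stayed past it in all 3 of these fits.

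**Figure D3:**
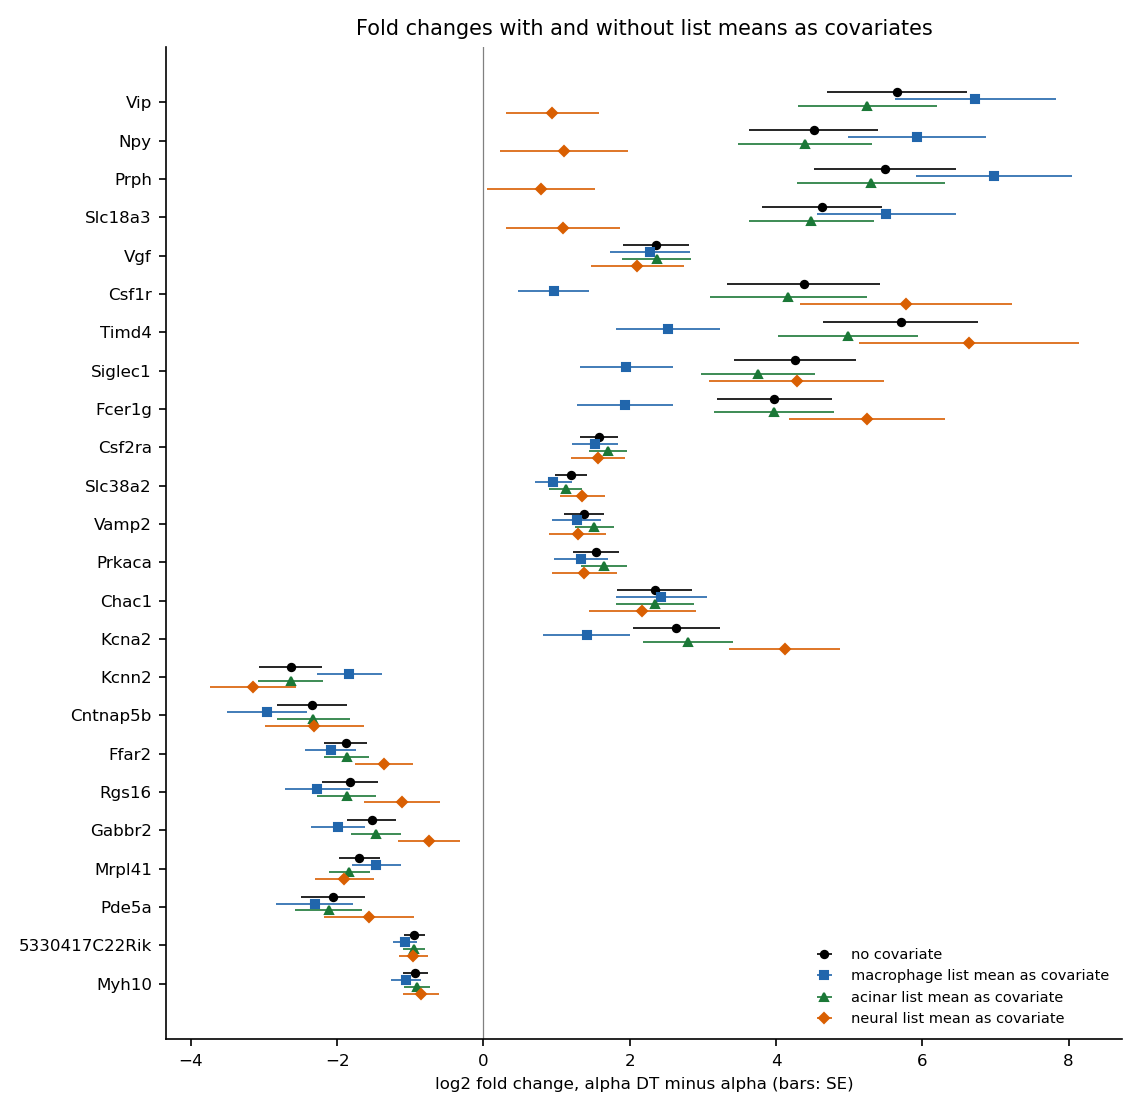
Log2 fold change of alpha DT minus alpha (x axis, bars show SE) for 24 genes (y axis), fitted without a covariate and with the macrophage, acinar or neural list mean. Vip, Prph and Slc18a3 are members of the neural mean and Csf1r, Timd4, Fcer1g and Csf2ra of the macrophage mean, so their fold changes in those fits are fixed in part by construction, and Npy, a member of neither, moves to 1.10 with the neural mean. The genes from Kcnn2 down stay below 0 in each fit.

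None of 24 alpha-cell hormone and effector genes passed the test, 12 had positive and 12 negative fold changes, and the median was 0.00. Gcg, the glucagon gene, was the top gene at 22.57 in all 4 alpha DT libraries and in 7 of 8 alpha libraries, so its amount cannot be compared. Ttr, transthyretin, had 19.87, 20.54, 20.54 and 18.63 in alpha DT and 16.98 to 20.54 in alpha. Irx1 and Irx2, transcription factors of alpha-cells, had fold changes of 0.07 and -0.34, with adjusted p-values of 0.967 and 0.803. Among 28 tested alpha-cell and pan-islet transcription factors, 1 rose (3.57%, against 3.26% of all genes tested). That gene, Nkx2-2, which all islet endocrine lineages use, had 13.05, 13.15, 12.45 and 12.74 in alpha DT, against 10.70 to 12.54 in alpha. The groups overlapped slightly, and the rise was 1.02 ± 0.25 (adjusted p = 0.0196; 0.0693 without alpha DT 2).

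The insulin genes were not called. Ins1 had 11.52, 14.15, 14.03 and 13.34 in alpha DT, against 11.61 to 18.27 with a median of 13.15 in alpha (-0.43 ± 1.18, adjusted p = 0.871). Ins2 had 12.83, 14.51, 13.91 and 13.86 in alpha DT, against 12.04 to 19.27 with a median of 14.11 in alpha (-0.45 ± 1.04, adjusted p = 0.846), where alpha 8 held the highest value of both genes. Without the library labelled alpha 8 the fold changes turned to 0.22 for Ins1 (adjusted p = 0.936) and 0.27 for Ins2 (adjusted p = 0.897), and without alpha DT 1 that of Ins1 was 0.15. Pdx1 had 6.52, 6.70, 3.71 and 5.63 in alpha DT and a median of 5.03 in alpha (0.10 ± 1.15, adjusted p = 0.972). It was 0.92 without the library labelled alpha 8 (adjusted p = 0.628), 0.75 without alpha DT 3, and between -0.25 and -0.04 without alpha DT 1 or 2 or alpha 1, 3, 5 or 6. Mafa, a factor of mature beta-cells, was at most 2.00 in alpha DT and 1.95 in alpha. Of 28 tested beta-cell identity genes, 2 rose (7.14%, against 3.26% of all genes tested). They were Npy and Hadh, a mitochondrial enzyme of fatty acid oxidation. Hadh had 9.01, 9.59, 9.03 and 8.27 in alpha DT and 6.70 to 8.32 in alpha (1.39 ± 0.39, adjusted p = 0.0401), and passed in 5 of the 12 fits that left out a library, with an adjusted p of 0.135 without alpha DT 2. That call was lost as well without alpha DT 1 or 3 and without alpha 2, 3, 4 or 6.

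The other islet hormone genes did not pass. Sst, somatostatin of delta-cells, had 15.46, 17.68, 17.68 and 14.84 in alpha DT, against 13.27 to 15.90 with a median of 14.17 in alpha (2.12 ± 0.94, adjusted p = 0.204). Ppy, pancreatic polypeptide, had 17.92, 18.63, 18.63 and 18.27 in alpha DT, against 14.97 to 17.92 with a median of 15.88 in alpha (2.12 ± 0.79, adjusted p = 0.128). Both lie in the range where values are fixed ranks. The mean of 10 such genes was 11.03 to 11.42 in alpha DT and 9.57 to 11.09 in alpha, with a median fold change of 0.81, 7 positive and 3 negative values and no member past the test.

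The falls were led by genes that are not markers of another cell type in the lists used. Kcnn2, which encodes the small-conductance calcium-activated potassium channel SK2, had 7.24, 6.31, 6.75 and 5.36 in alpha DT, against 7.94 to 10.15 with a median of 9.10 in alpha. All 4 alpha DT libraries lay below all 8 alpha libraries, alpha 4 had 9.20, and the fold change was -2.64 ± 0.42 (adjusted p = 0.00122). It held in all 12 fits that left out a library, between -2.91 and -2.28. Cntnap5b, a neurexin-like cell adhesion protein, had 6.75, 8.41, 7.86 and 7.49 in alpha DT and 9.34 to 10.47 in alpha (-2.35 ± 0.48, adjusted p = 0.00666). Upk3a, a uroplakin of the urothelium, had 7.02, 6.09, 6.52 and 5.06 in alpha DT, against 10.21 to 11.97 in 7 alpha libraries and 5.80 in alpha 8. Its fold change was -4.43 ± 1.08 (adjusted p = 0.0243), and it was -5.12 (adjusted p = 0.0047) without alpha 8 and missed the threshold without alpha DT 2 (adjusted p = 0.0559).

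Receptors and regulators of G-protein signalling moved in both directions. Of 43 tested hormone and nutrient receptor genes, 2 rose (Chrm4 and P2ry1) and 3 fell (Ffar2, Gabbr2 and Ffar3), in all 11.6% against 3.26% of all genes tested, with a median of 0.02. Neither riser passed without alpha DT 2 or without alpha DT 3. Chrm4 was below the filter value of 5 in every alpha and alpha Pdx1 library (at most 4.60 and 3.56). The share therefore describes the list and is no support. Ffar2, a receptor for short-chain fatty acids, had 7.38, 8.45, 6.28 and 8.05 in alpha DT, against 8.67 to 9.72 with a median of 9.51 in alpha. The groups did not overlap, and the fold change was -1.88 ± 0.29 (adjusted p = 0.00122). Gabbr2, a subunit of the GABA-B receptor, had 8.06, 8.04, 7.26 and 8.58 in alpha DT and 8.89 to 10.66 in alpha (-1.53 ± 0.33, adjusted p = 0.0101). Ffar3, the neighbouring fatty acid receptor gene, fell by 2.41 ± 0.64 (adjusted p = 0.0331), with 1.07, 4.85, 5.92 and 6.28 in alpha DT and 5.92 to 9.04 in alpha, where 1.07 in alpha DT 1 is the lowest value of that library, shared by 461 genes. Without alpha DT 1 the fold change was -1.26 (adjusted p = 0.162). It also missed the threshold without alpha DT 2 or without alpha 1, 4 or 8.

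Of 42 tested regulators of G proteins and cyclic nucleotides, 2 rose (Prkaca and Pde1b) and 2 fell (Rgs16 and Pde5a), in all 9.52%, with a median of 0.02. Rgs16, which shortens G-protein signals, had 8.21, 7.91, 5.21 and 8.11 in alpha DT and 8.30 to 9.89 in alpha, so that alpha DT 3 was far below the other alpha DT libraries and the groups were otherwise close. Its fold change was -1.82 ± 0.39 (adjusted p = 0.00895), and -1.11 without alpha DT 3 (adjusted p = 0.0413). Pde5a, a phosphodiesterase for cyclic GMP, had 6.94, 7.29, 5.34 and 6.76 in alpha DT and 7.54 to 10.66 in alpha (-2.06 ± 0.44, adjusted p = 0.0101). Prkaca, the catalytic subunit of protein kinase A, had 11.89, 12.26, 11.83 and 11.34 in alpha DT and 9.28 to 11.68 in alpha, with alpha 5 the highest alpha library, and rose by 1.54 ± 0.31 (adjusted p = 0.00618).

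**Figure D4:**
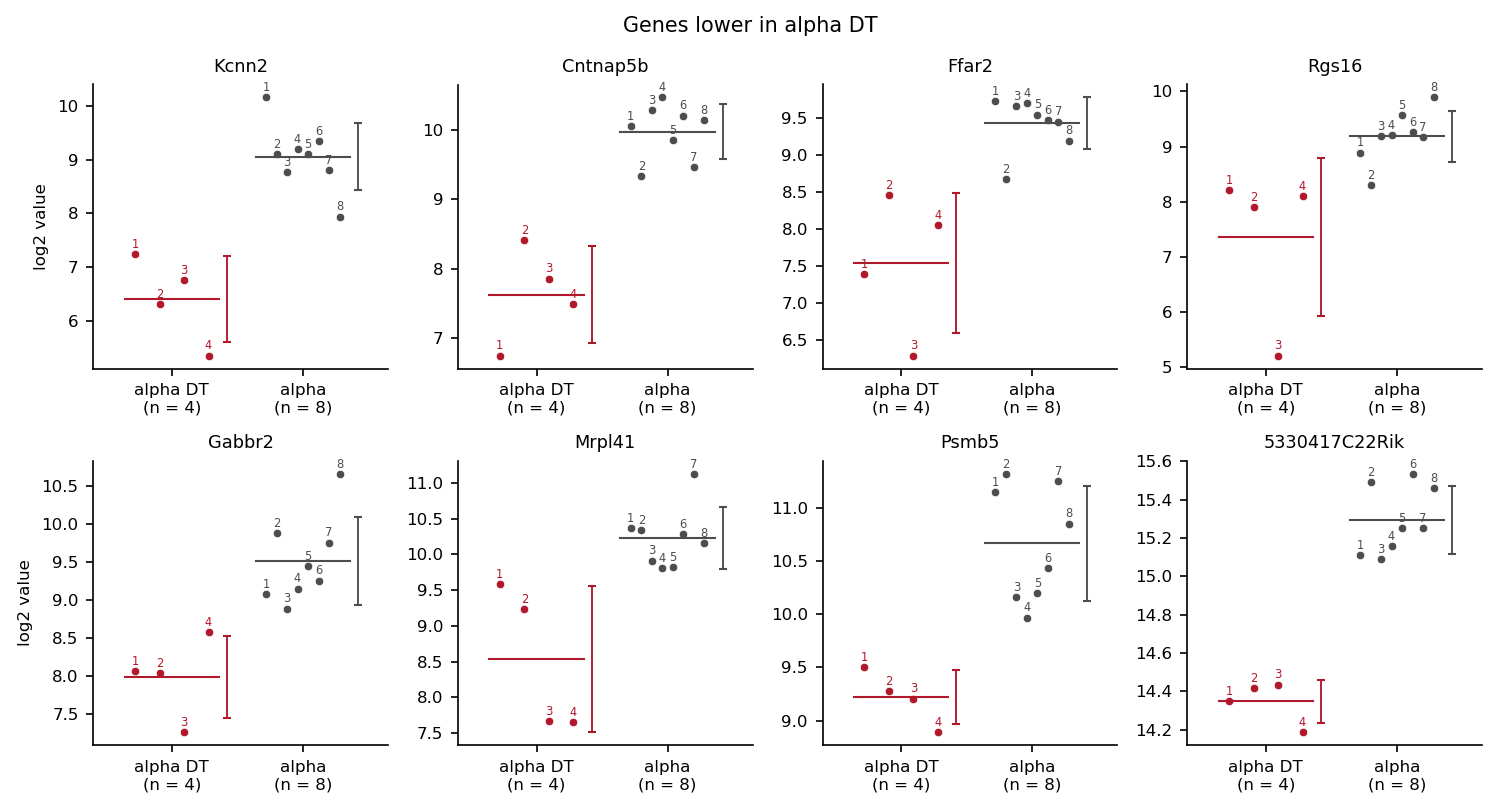
Log2 values (y axis) of 8 genes that were lower in alpha DT, in each numbered library of alpha DT and alpha, with group mean (line) and SD (bar). The alpha DT libraries lie below all 8 alpha libraries for each of these genes, and alpha 4 lies with the other alpha libraries.

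Ion channel and secretory genes held 1 to 5 calls per list. Of 33 tested potassium channel genes (6.06% called, against 3.26% of all genes), Kcnn2 fell and Kcna2, a voltage-gated channel, rose, with 8.15, 8.48, 8.39 and 10.41 in alpha DT and 5.11 to 7.45 in alpha (2.63 ± 0.59, adjusted p = 0.0131). Kcna2 was highest in alpha DT 4, the library with the highest macrophage mean. It had 1.41 (adjusted p = 0.228) with the macrophage mean as covariate and 4.12 (adjusted p = 0.0171) with the neural mean. Of 41 genes of calcium, sodium and other cation channels, 1 fell (2.44%), which was Cacna1c, the pore subunit of an L-type calcium channel. It had 11.38, 11.10, 11.51 and 11.65 in alpha DT, against 11.74 to 12.64 in alpha, a fall of 0.76 ± 0.17 (adjusted p = 0.0119; 0.0547 without alpha DT 2). Of 48 tested genes of exocytosis and vesicle fusion, 2 rose and 3 fell (Sytl5, Syt14 and Rims2), in all 10.4%, with a median of 0.02. Vamp2, the vesicle SNARE of insulin and glucagon granules, had 12.79, 13.03, 12.78 and 12.96 in alpha DT and 10.08 to 12.42 in alpha, and rose by 1.38 ± 0.27 (adjusted p = 0.00582). The other riser, Cplx1, a complexin of synapses, had 7.26, 6.21, 5.57 and 0.99 in alpha DT and 4.96 in alpha 4, against at most 1.40 in the other alpha libraries, which is the library pattern of the nerve genes. It rose by 3.59 ± 0.96 (adjusted p = 0.0335) and had -0.41 (adjusted p = 0.881) with the neural mean as covariate. Its call was lost without alpha DT 1 (adjusted p = 0.115), alpha DT 2 (0.106) or alpha DT 3 (0.0638) and without alpha 1, 2 or 6. Cplx1 was below the filter value of 5 in every alpha and alpha Pdx1 library, so the share of 10.4% describes the list and is no support. Sytl5, a synaptotagmin-like Rab27 partner, had 11.71, 11.35, 11.67 and 11.67 in alpha DT and 11.76 to 12.92 in alpha (-0.98 ± 0.23, adjusted p = 0.0143; 0.0519 without alpha DT 2). The calls of Syt14 and Rims2 were lost in 5 and 9 of the 12 fits.

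Among genes in the top quartile of alpha levels and in no list of another cell type, the 12 risers with the smallest p had fold changes from 0.80 to 1.82 and the 12 fallers from -1.45 to -0.63. All 24 kept their call in the 12 fits that left out a library. Slc38a2, a transporter of glutamine and alanine, had 13.47, 12.30, 12.23 and 12.96 in alpha DT, against 11.05 to 12.03 in alpha, and rose by 1.20 ± 0.22 (adjusted p = 0.00265). It was the 1 riser among 27 tested amino-acid transporter genes (3.7%, against 3.26% of all genes tested). Mapk1ip1l had 11.90, 11.83, 12.18 and 12.68 in alpha DT and 11.20 to 11.48 in alpha (0.85 ± 0.15, adjusted p = 0.00287). Cd63, a tetraspanin of lysosomes and secretory granules, had 13.15, 12.73, 12.08 and 11.41 in alpha DT and 9.48 to 11.94 in alpha (1.82 ± 0.41, adjusted p = 0.0145), with an overlap through alpha 5.

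Of the abundant fallers, 5330417C22Rik had 14.35, 14.42, 14.44 and 14.19 in alpha DT, against 15.09 to 15.54 in alpha. This was the smallest adjusted p of the genes named here (0.000998), with a fall of 0.95 ± 0.14. Psmb5, a catalytic subunit of the proteasome, had 9.50, 9.28, 9.21 and 8.89 in alpha DT and 9.97 to 11.32 in alpha (-1.45 ± 0.24, adjusted p = 0.00158). The neural and macrophage means were also higher in alpha DT, and their part in these changes was not tested beyond the covariate fits. Myh10, a non-muscle myosin heavy chain, had 10.80, 10.81, 11.03 and 11.36 in alpha DT and 11.79 to 12.21 in alpha (-0.93 ± 0.17, adjusted p = 0.00287). Nbea, neurobeachin, which acts in membrane trafficking, fell by 0.65 ± 0.14 (adjusted p = 0.00895), and Rap1gap2, which inactivates the small GTPase Rap1, by 0.70 ± 0.14 (adjusted p = 0.00582). With the macrophage mean as covariate, 10 of the 12 fallers and 4 of the 12 risers passed, and with the acinar mean all 24 did. With the neural mean, 1 faller and 1 riser passed, with fold changes between -1.41 and -0.47 for the fallers and between 0.53 and 1.43 for the risers.

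Stress, metabolic and signalling lists held between 0 and 3 calls each, from 0% to 8.33% of their tested members, against 3.26% of all genes. None of 30 immediate early genes passed, and Fos had 14.32, 14.17, 13.63 and 14.10 in alpha DT, against 14.40 to 15.86 in alpha (-0.95 ± 0.32, adjusted p = 0.0921). Of 26 genes of the integrated stress response, 2 rose. Chac1, which degrades glutathione and is a target of ATF4, had 7.93, 7.16, 8.98 and 6.08 in alpha DT and 3.68 to 6.10 in alpha (2.34 ± 0.51, adjusted p = 0.0104). Cebpg, a partner of ATF4, rose by 0.77 ± 0.18 (adjusted p = 0.0172; 0.0674 without alpha DT 1). Of 34 genes of the unfolded protein response and protein folding, Derl3 rose and Pdia3 fell. Of 76 mitochondrial ribosomal protein genes, 2 fell and none rose. Mrpl41, one of them, had 9.59, 9.24, 7.67 and 7.65 in alpha DT and 9.81 to 11.13 in alpha (-1.69 ± 0.28, adjusted p = 0.0013), while the median of the 76 was -0.12. Of 54 genes of the respiratory chain and ATP synthase 1 rose and 1 fell, of 46 genes of glycolysis and the citrate cycle 1 fell, and of 42 genes of cholesterol and lipid synthesis 2 rose and 1 fell.

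Of 47 tested genes of insulin, FoxO and mTOR signalling, 2 rose (4.26%, against 3.26% of all genes tested). They were Foxo4 and Foxo3, transcription factors that insulin signalling holds out of the nucleus. Foxo3 had 10.88, 10.30, 11.09 and 11.07 in alpha DT and 9.21 to 10.48 in alpha (0.78 ± 0.23, adjusted p = 0.0489), and Foxo4 rose by 1.88 ± 0.53 (adjusted p = 0.0416). Each passed in 3 of the 12 fits that left out a library, with adjusted p-values up to 0.107, so that most single libraries decide these calls. Insr, the insulin receptor, had a fold change of 0.26 ± 0.15 (adjusted p = 0.365). Among 12 Hedgehog genes, Prkaca was the 1 riser (8.33%), and Smo, the Hedgehog signal transducer, had -0.10 ± 0.36 (adjusted p = 0.911). Of 24 Notch genes, Notch1 and Hes1 fell (8.33%). Notch1 had 10.76, 11.003, 10.47 and 10.46 in alpha DT and 10.96 to 11.68 in alpha (-0.59 ± 0.16, adjusted p = 0.037), and it missed the threshold without alpha DT 3 (adjusted p = 0.0772), alpha DT 4 (0.0641) or alpha 1, 2 or 6. Hes1, a Notch target, fell by 2.04 ± 0.57 (adjusted p = 0.0413) and passed in 3 of the 12 fits, with an adjusted p of 0.115 without alpha DT 2. None of 32 cell cycle genes passed. Of 27 genes of apoptosis and death receptors, Bak1 and Mlkl rose (7.41%), and they passed in 7 and 5 of the 12 fits that left out a library. In lists with 3 or fewer members past the test, leaving out 1 library could add or remove a member.

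The toxin contrast in alpha-cells with Pdx1 shares no library with the contrast above. It called 1534 of 16633 genes (9.22%), 804 higher (4.83%) and 730 lower (4.39%) in alpha Pdx1 DT, and 143 genes were called in both, which is 26.3% of the 543 and 9.32% of the 1534. Of the 143, 92 were higher in both, 50 were lower in both and Notch1 went opposite ways. The count of 1534 ranged from 563 without alpha Pdx1 5 to 2558 without alpha Pdx1 DT 5, was also moved more than 1.5 times by leaving out alpha Pdx1 DT 1, 4 or 6 or alpha Pdx1 2, 3 or 4, and was 254 with the macrophage mean and 0 with Rn18s-rs5 as covariate. Without alpha 4 and alpha Pdx1 DT 5, 199 genes were shared and 198 had the same direction. Over all tested genes 67.5% had the same sign in both contrasts, and over the 543 it was 90.2%.

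Vip, Npy, Prph and Csf1r rose in both contrasts. Vip had 4.45 to 9.55 with a median of 7.99 in alpha Pdx1 DT and 1.72 to 3.68 in alpha Pdx1, a fold change of 4.92 ± 0.94 (adjusted p = 0.00418). The groups did not overlap for Vip. Npy rose by 3.85 ± 0.87 (adjusted p = 0.00833), Prph by 3.55 ± 0.96 (adjusted p = 0.0211) and Csf1r by 3.74 ± 1.03 (adjusted p = 0.0251). Of the lists, 4 of 12 neural and 5 of 27 macrophage genes rose with Pdx1, where 4.83% of all genes rose. Low members of both lists could pass the filter through the toxin-treated libraries of this contrast, so these counts are no support. Vip and Prph entered the test largely in this way, so their single tests are no support either. Among abundant genes, Vamp2 rose by 1.69 ± 0.27 (adjusted p = 0.00109) with Pdx1, Prkaca by 1.82 ± 0.31 (adjusted p = 0.00206) and Nkx2-2 by 1.17 ± 0.25 (adjusted p = 0.00614). Of the 12 abundant risers 6 passed with Pdx1, and of the 12 abundant fallers 4 passed.

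Kcnn2 had a fold change of -1.07 ± 0.42 (adjusted p = 0.0952) with Pdx1. The library labelled alpha Pdx1 DT 5 had 9.23, and the other 5 alpha Pdx1 DT libraries had 5.89 to 7.25, entirely below the 7.42 to 8.93 of alpha Pdx1. Without that library the fold change was -1.49 ± 0.37 (adjusted p = 0.00694). Ffar2 had 0.04 ± 0.29 and Rgs16 0.45 ± 0.38 with Pdx1, and -0.10 and 0.59 without that library, and neither passed. A call in one contrast alone does not show that the effects differ. In the test of the difference between the contrasts, no gene passed limma at an adjusted p under 0.05, while 1527 had an unadjusted p under 0.05, and leaving out alpha DT 1 or alpha DT 2 gave 3 genes each. Kcnn2 had a difference of -1.56 (adjusted p = 0.443; -1.14 without the library labelled alpha Pdx1 DT 5, adjusted p = 0.425), Ffar2 of -1.92 (adjusted p = 0.158) and Rgs16 of -2.27 (adjusted p = 0.273). The smallest adjusted p, 0.158, was that of 5 genes, among them Ffar2, Notch1 (-1.11) and Dhx58 (2.80), the last a cytosolic RNA sensor of the interferon response.

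**Figure D5:**
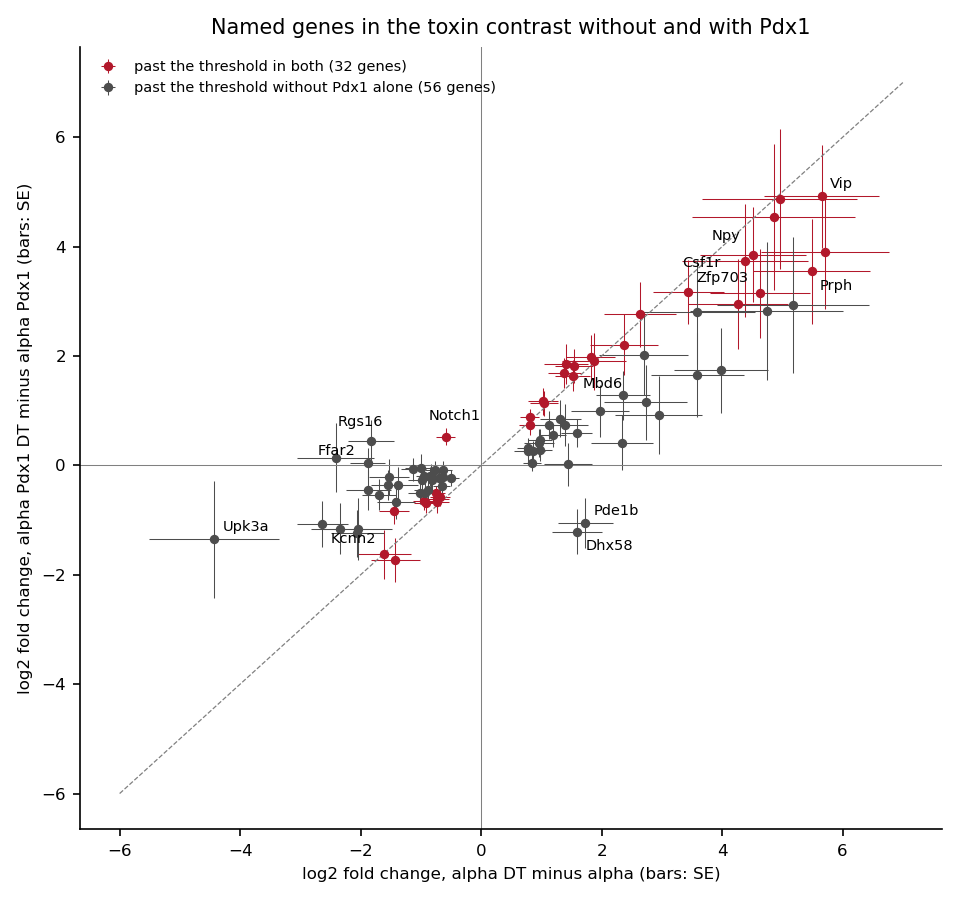
Log2 fold change of alpha DT minus alpha (x axis) against that of alpha Pdx1 DT minus alpha Pdx1 (y axis) for the 88 named genes past the test without Pdx1, bars show SE and the dashed line marks equal values. With all libraries as labelled, 32 also passed with Pdx1, 82 have the same sign in both, and Ffar2, Ffar3, Rgs16, Notch1, Dhx58 and Pde1b have opposite signs.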

How the data were processed

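The table analysed holds 17775 genes in 30 libraries from sorted mouse islet cells. The authors deposited log2 values, which share one top value and nearly equal quartiles across libraries and so are quantile-normalized. Per the submitters' processing notes, reads were aligned with GSNAP to GRCm38. The counting rule, annotation and version are not given in the sources used here, and read depth is unknown, so no counting interval is given. Quantile normalization fixes the highest values and spreads the effect of admixed transcripts over all genes.

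Genes at 5 or more in at least 4 libraries were tested (16633). One linear model with a mean for each group was fitted to all 30 libraries with limma 3.58.1 (R 4.3.3; moderated variances with trend and robust options, two-sided, Benjamini-Hochberg adjustment over all tested genes, threshold 0.05). Contrasts were alpha DT minus alpha, alpha Pdx1 DT minus alpha Pdx1, and their difference. The fit was tested on simulated data. Alternatives were other filters, an offset of 32 on the linear scale, the compared groups alone, library weights, median rescaling, a fold test, covariates, and leaving out libraries. The neural covariate, and the macrophage, acinar and neural covariates together, were chosen after seeing the data.

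The groups, the 35 gene lists and the rule for named genes were chosen with earlier results of these data known, so list counts are descriptions. Named genes were fixed identity genes and Vip, Npy, Kcnn2 and Csf1r, the 12 highest and 12 lowest fold changes past the threshold among well-expressed genes, the 12 risers and 12 fallers with the smallest p among abundant genes outside lists of other cell types, and up to 3 risers and 3 fallers of each list (or the 2 smallest p where none passed). Genes named beside these to show a marker list were chosen after their values were seen. Promoters came from RefSeq (GRCm38.p6). Tables and plots used Python 3.11.15, numpy 2.4.6, pandas 2.3.3 and matplotlib 3.10.9. Some genes of the fixed sets are not reported here.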

Additional observations from a re-analysis of the deposited data

Results flagged for a closer look

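Each gene and list mean named here was examined for a library far from the rest of its group. Of 250 groups of values 26 were marked (10.4%). A rate of about 1 in 20 would hold for independent values, which these are not. Genes moved together across libraries and some values were tied at the top or near the floor, so no excess over chance is shown. They were 9 in alpha DT and 17 in alpha.

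In alpha DT 2, Gm17807 was low at 5.38, Pcca at 8.76 and Sytl5 at 11.35, while Corin was high at 9.50 and the mean of beta-cell identity genes at 8.47. In alpha DT 3, Rgs16 was low at 5.21 and the mean of alpha-cell hormone and effector genes at 12.42. In alpha DT 4, Kcna2 was high at 10.41 and Mrps34 low at 4.37.

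In alpha 4, nerve genes stood out: Vip at 7.39, Prph at 5.93, Slc18a3 at 3.42, Cplx1 at 4.96 and the neural list mean at 7.05 were each above the other alpha libraries. In alpha 8, Gcg at 20.54, Ttr at 16.98, Upk3a at 5.80 and Sytl5 at 11.76 were below the other alpha libraries, while Ins2 at 19.27 and Pdx1 at 11.23 were above them. In alpha 7, Gm17807 at 10.28, Mrpl41 at 11.13 and Prss3 at 7.02 were high and Nbea at 13.60 was low. In alpha 5, Rnf44 was high at 11.35 and Cdkn2b low at 5.26.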

How the results depend on the processing

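No paired analysis was possible because the labels give no replicate numbers that tie libraries of different groups. The count of 543 genes called between alpha DT and alpha became 66 with only the compared groups in the fit, 208 with library weights, 295 with the Rn18s-rs5 covariate, 244 with the macrophage covariate, 15 with the neural covariate, and 0 with all 3 list covariates and in the fold test. The 261 higher genes became 48, 102, 138, 106, 9, 0 and 0 in the same order, and the 282 lower genes 18, 106, 157, 138, 6, 0 and 0. Leaving out 1 library gave 306 to 1078 called genes, 150 to 484 higher and 153 to 594 lower. The higher count was 150 without alpha DT 2, 153 without alpha 2 and 484 without alpha DT 4. The lower count was 153 without alpha 2, 172 without alpha 4, 184 without alpha 6, 183 without alpha 8 and 594 without alpha DT 4. With Pdx1, the count of 1534 became 904 with only the compared groups, 3769 with library weights, 0 with Rn18s-rs5 (758 at an unadjusted p under 0.05), 254 with the macrophage and 451 with the neural covariate, 0 with all 3, 0 in the fold test (274 unadjusted), and 2422 without alpha 4 and alpha Pdx1 DT 5, and ranged from 563 to 2558 without 1 library. The difference between the contrasts called 0 genes, 1 with library weights, and 0 to 3 without 1 library. Under the 3 list covariates, Vim had a log2 fold change of -0.12, Cfb one of -0.64 and Scg3 one of 0.038, opposite in sign to the fit without covariates, and Cplx1 had -0.41 with the neural covariate. The cause was not tested. Across fits that left out 1 library, 1173 values for named genes stayed on the same side of the threshold, 192 no longer passed and 3 newly passed. Values that passed in neither fit count as unchanged even where their sign turned, as for Ins1, Ins2 and Pdx1. Among the other fits the numbers were 1223, 473 and 4. Without read counts, what depth limits cannot be given.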

Other observations

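Further genes moved in alpha DT outside the groups above. Zfp703, a zinc finger protein of transcriptional repression, had 10.07, 7.19, 9.75 and 9.14 in alpha DT and 3.39 to 7.37 in alpha, a rise of 3.44 ± 0.59 (adjusted p = 0.00158, limma), and it rose by 3.17 with Pdx1 (adjusted p = 0.00294). Mbd6, a methyl-CpG-binding domain protein, had 12.31, 12.55, 12.58 and 11.62 in alpha DT and 9.71 to 11.65 in alpha, and rose by 1.52 ± 0.29 without Pdx1 (adjusted p = 0.00333) and by 1.64 with it (adjusted p = 0.00209). Cd44, a hyaluronan receptor, had 8.93, 10.60, 9.11 and 11.57 in alpha DT and 4.09 to 8.21 in alpha, a rise of 3.59 ± 0.77 (adjusted p = 0.0113). Its highest value was in alpha DT 4, the library with the highest macrophage mean, and its fold change was 1.67 with that mean as covariate. With the neural mean the fold change was 4.82. Cd44 was also high in the sorted beta-cells (mean 10.88, SD 0.73, n = 7), and its source was not tested.

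Of 33 tested interferon response and class I genes, 1 rose and 1 fell (6.06%, against 3.26% of all genes tested), with a median fold change of 0.31. The riser, Dhx58, had 7.56, 7.005, 8.58 and 7.05 in alpha DT and 4.34 to 6.57 in alpha. The faller, Usp18, an inhibitor of interferon signalling, had 8.14, 8.47, 6.33 and 8.65 in alpha DT and 8.76 to 9.96 in alpha (-1.41 ± 0.31, adjusted p = 0.0118), and its fold change was -0.89 without alpha DT 3 (adjusted p = 0.0583). Neurl1b, an E3 ligase that acts on Notch ligands, had 7.51, 8.02, 7.55 and 6.86 in alpha DT and 8.31 to 10.11 in alpha, and fell by 1.54 ± 0.28 (adjusted p = 0.00273). Atp5a1, a subunit of ATP synthase, fell by 0.68 ± 0.17 (adjusted p = 0.0198; up to 0.0522 when 1 library was left out).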
